A study of Mus musculus with 6 samples.

Results

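The nuclear genes of the mitochondrial respiratory chain and ATP synthase were followed through RNA sequencing libraries of mouse pre-iPSCs, cells stopped part of the way through reprogramming from fibroblasts to pluripotency. They were chosen by symbol alone: Nduf genes of the a, b, c, s and v series, Sdha to Sdhd, and all symbols that begin with Uqcr, Cox4 to Cox8 or Atp5. This gave 85 of the 20325 genes listed: 37 of complex I, 4 of complex II, 8 of complex III, 19 of complex IV and 17 of complex V. Some of the symbols are known under other names: Cox4nb is Emc8, a subunit of a membrane protein insertion complex and not of complex IV, and Atp5s and Atp5sl are now named Dmac2l and Dmac2, outside the subunit series. The 13 subunits encoded in mitochondrial DNA are not analysed here.

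Complexes I and II pass electrons from NADH and succinate to ubiquinone, complex III passes them on to cytochrome c, and complex IV hands them to oxygen. Complexes I, III and IV pump protons across the inner mitochondrial membrane, and complex V, the ATP synthase, uses the resulting gradient to make ATP. Reprogramming of fibroblasts to pluripotency is known for a shift from oxidative phosphorylation towards glycolysis, and several complex IV subunits exist as pairs of isoforms, of which one is common and the other restricted to tissues such as heart, skeletal muscle or testis.

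The cells were the lines pre2-2 and pre3, each derived from embryonic fibroblasts of OG2 transgenic mice of mixed 129SVJ, C57B6 and CBA background and used at passage 10. The treatments within a line were no transfection, a control siRNA, and siTet1, an siRNA against the 5-methylcytosine dioxygenase Tet1. Every group was kept in embryonic stem cell medium with LIF and then received vitamin C at 50 µg/ml, so no library comes from cells without vitamin C. The labels differ on the time course: in the series text the vitamin C medium follows transfection by 16 h and RNA was taken 32 h later, and the sample descriptions give 36 h of vitamin C and, for the transfected cells, 48 h from transfection to RNA. They also name the source as fibroblasts while the series text names pre-iPSCs, and 1 field reads Tet where the others read Tet1. Each of the 6 combinations gave 1 library, so a treatment was measured once in each of 2 lines, and separate cultures behind the libraries of a line are nowhere stated. The p-values therefore measure the spread between these libraries only.

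The libraries held 1868640 to 2582803 expected counts, and 11048 genes had enough counts to be tested. Tet1 was measured at 249, 245 and 153 CPM (read counts scaled to library size with TMM factors) in the untransfected, control siRNA and siTet1 libraries of pre2-2, and at 204, 250 and 158 CPM in those of pre3. It was lower with siTet1 than with control siRNA by edgeR (log2 fold change -0.67 ± 0.13 SE, adjusted p = 0.0043). Of 8 pluripotent cell markers Pou5f1 and Sox2 were abundant, whereas Nanog, Zfp42, Esrrb and Lin28a lay between 0 and 5.83 CPM in every library. The 9 fibroblast markers summed to 5272, 9562 and 11350 CPM in pre2-2 and to 4966, 4880 and 5776 CPM in pre3, in the order untransfected, control siRNA, siTet1. The same order of treatments is used for all values below.

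Respiratory chain transcripts were abundant in both lines and took a similar share of each library. The 85 genes made up 2.30, 2.28 and 2.24% of transcripts in pre2-2 and 2.51, 2.36 and 2.44% in pre3, from the deposited fractions, which are per length and are given below as TPM (each library summing to the same total). Each of the 3 pre3 values lay above each of the 3 pre2-2 values. ATP synthase genes made up the largest part, with a summed level of 8227 ± 357 TPM in pre2-2 and 8955 ± 224 TPM in pre3 (mean ± SD over 3 libraries per line, 1 of each treatment). Complex I genes summed to 6488 ± 28.6 and 6842 ± 290 TPM, complex IV genes to 4985 ± 158 and 5286 ± 223 TPM, complex III genes to 2321 ± 42.1 and 2482 ± 49.7 TPM, and the 4 complex II genes to 734 ± 23.3 and 810 ± 21.8 TPM. Every complex was thus higher in pre3 on average, by ratios of 1.05 (I), 1.104 (II), 1.07 (III), 1.06 (IV) and 1.09 (V). In bulk RNA a lower level can mean fewer cells of a type or less RNA per cell, which cannot be told apart.

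**Figure D1:**
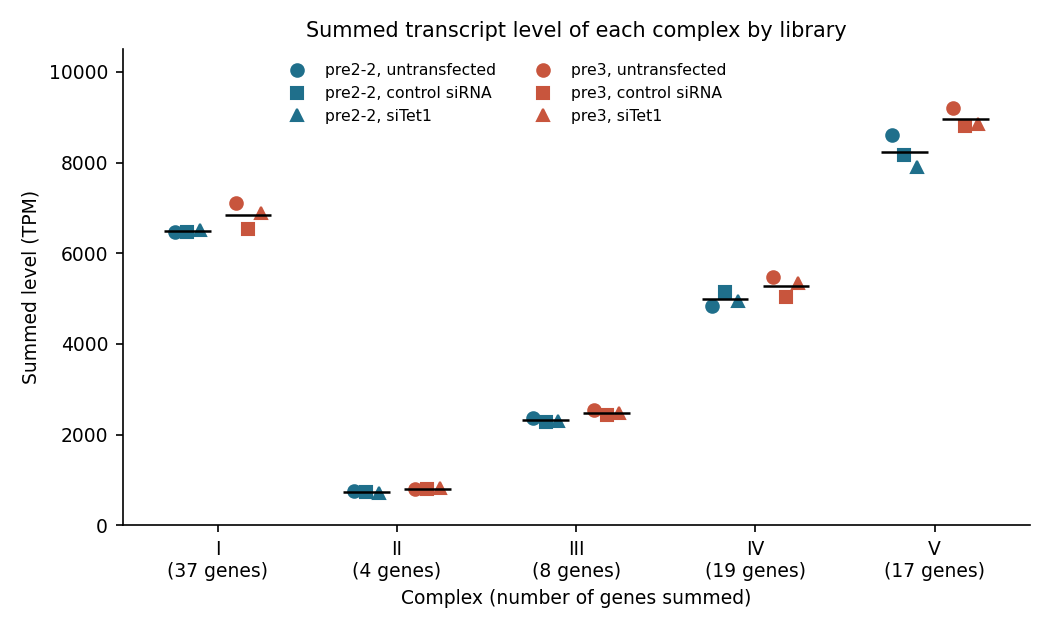
Summed level in TPM (vertical axis) of the genes of each complex (horizontal axis) in each of the 6 libraries; bars mark the mean of the 3 libraries of a line. The pre3 libraries lie above those of pre2-2 for complexes I, II, III and V, and the lines overlap for complex IV, where the pre3 control siRNA library lies at 5043 TPM and the pre2-2 one at 5157 TPM.

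Within a complex the levels ranged widely. Atp5b, the catalytic beta subunit of the ATP synthase, was the most abundant of all 85 at a mean of 1753 TPM over the 6 libraries. Next within complex V came Atp5a1, which encodes the alpha subunit. The highest of complex IV was Cox4i1 (779 TPM), of complex I Ndufa4 (480 TPM), of complex III Uqcrh (402 TPM) and of complex II Sdhd (220 TPM). At the low end of the tested genes stood Ndufa11 (42.9 TPM) in complex I, Sdha (176 TPM) in complex II, Uqcrfs1, the Rieske iron-sulphur protein (206 TPM), in complex III, Cox4nb (28.9 TPM) under complex IV and Atp5s (8.96 TPM) under complex V. The lowest of complexes IV and V by symbol were thus genes that do not encode subunits. The median tested gene lay at 169 TPM in complex I, 188 TPM in complex II, 299 TPM in complex III, 402 TPM in complex IV and 385 TPM in complex V.

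Of the complex IV isoforms, the common ones carried nearly all of the signal. Counts of Cox6a2, Cox7b2, Cox8b and Cox8c, isoforms restricted to muscle or germ cells, were 0 in all 6 libraries, which allows up to 0.241 CPM over the libraries together (3 counts; counting error only). Cox4i2, the lung and hypoxia isoform of subunit 4, had 1, 0 and 0 counts in pre2-2 and 2, 1 and 0 in pre3. Cox7a1, the heart and skeletal muscle isoform, had 3, 2 and 0 counts in pre2-2 and 1, 1 and 0 in pre3. These 6 genes were too low to test, which left 79 tested genes, all of which had a count in every library. Their common partners lay at 722 to 842 TPM (Cox4i1), 578 to 657 TPM (Cox6a1), 197 to 217 TPM (Cox7a2), 178 to 208 TPM (Cox7b) and 509 to 670 TPM (Cox8a). Of 11 muscle markers Ckm, Myog, Myod1 and Myh7 were at 0 in all libraries, while Ryr1 lay at 5.83 to 16.3 CPM, Tnni3 at 2.52 to 4.25 CPM, Tnnt2 at up to 6.05 CPM and Acta1 at 0 to 38.7 CPM. Acta1 was highest in the siTet1 library of pre2-2 and was called higher with siTet1 than with control siRNA (1.90, adjusted p = 0.0316 by edgeR).

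The exception was Cox6b2, known as the testis isoform of subunit 6b. It was measured at 58.5, 114 and 87.8 TPM in pre2-2 and at 119, 115 and 112 TPM in pre3, which was 9.88, 16.6 and 13.8% of the summed Cox6b1 and Cox6b2 level in pre2-2 and 17.8, 20.8 and 17.01% in pre3. The untransfected pre2-2 library was the lowest. The 7 testis germ cell markers, Ddx4, Dazl, Prm1, Prm2, Tnp1, Acrv1 and Sycp3, summed to at most 0.531 CPM in any library. For the c subunit of the ATP synthase ring, which 3 genes encode as the same mature protein, Atp5g3 supplied 44.2, 46.6 and 44.9% of the summed level in pre2-2 and 50.8, 50.3 and 45.2% in pre3, Atp5g2 supplied 32.7 to 39.1% and Atp5g1 15.7 to 19.4%.

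**Figure D2:**
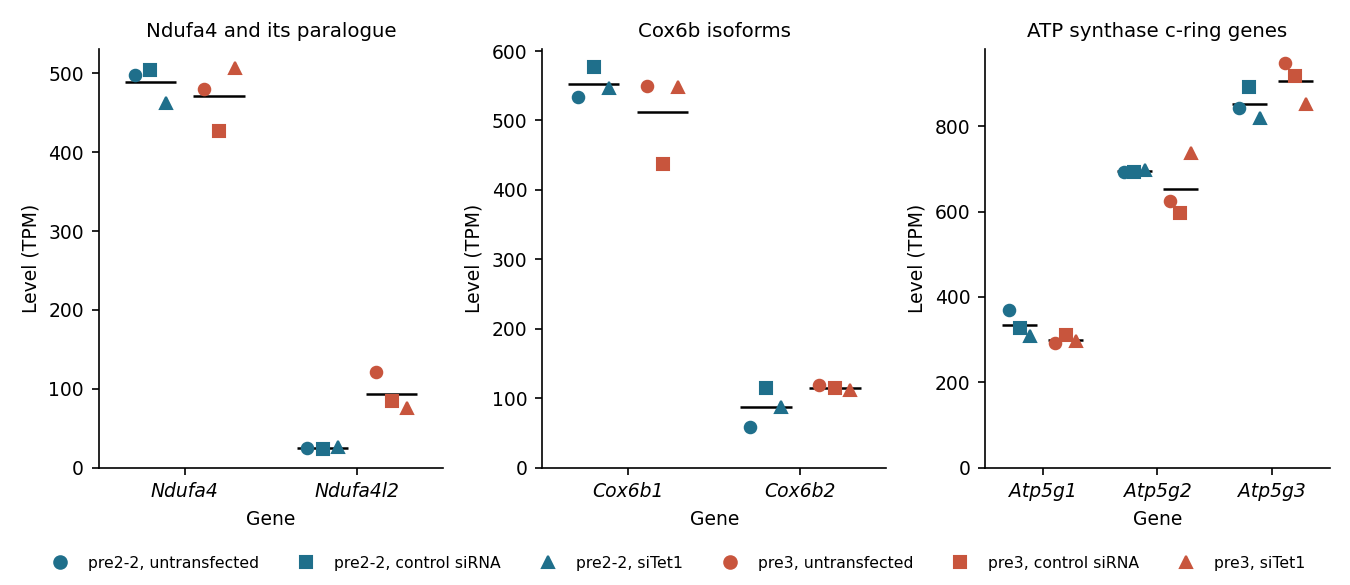
Level in TPM (vertical axes) of Ndufa4 and Ndufa4l2, of Cox6b1 and Cox6b2, and of the 3 genes of the ATP synthase c ring (horizontal axes), in each of the 6 libraries; bars mark the mean of a line. Ndufa4l2 lies at 23.3 to 25.9 TPM in pre2-2 and at 75.9 to 121 TPM in pre3, while its paralogue Ndufa4 overlaps between the lines.

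With all 6 libraries in the fit, no respiratory chain gene passed the test between siTet1 and control siRNA, which addresses what a lower Tet1 level does in vitamin C medium. By edgeR 0 of 79 were called at an adjusted p under 0.05, where 1.58% of all tested genes were. An unadjusted p under 0.05 was reached by 2 of 79 (2.53%), against 10.8% of all tested genes. DESeq2 and limma-voom also called 0. Atp5b was called lower by edgeR when the 4 compared libraries were fitted alone with the line as a block (log2 fold change -0.19, adjusted p = 0.0449). Leaving out untransfected pre2-2 or untransfected pre3 also gave -0.19. The untransfected library that remains then has no weight in this comparison, so these fits are 1 check on the same 4 libraries. The median log2 fold change was 0.01, against 0.00 over all tested genes. Of the 79 genes, 20 were higher with siTet1 in both lines and 23 were lower in both, against 29.4 and 30.6% of all tested genes. In the 2 lines 36 went opposite ways, against 4402 of the 11048 tested genes. All 79 estimates were smaller than 1.5-fold, as were 91.25% over all tested genes. The 95% interval of 69 lay inside 1.5-fold in both directions, against 47.2% of all tested genes. A larger change was thus within the error for the other 10.

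The smallest adjusted p belonged to Ndufa3, an accessory subunit of complex I. It was measured at 25.5, 24.2 and 37.7 CPM in pre2-2 and 29.1, 24.96 and 34.4 CPM in pre3. The siTet1 library was the highest of the 3 in each line, and the 2 siTet1 libraries lay above the 4 others. The log2 fold change against control siRNA was 0.56 ± 0.22 SE, with an adjusted p of 0.303. The lowest estimate was that of Ndufb6, an accessory subunit of the membrane arm, at -0.20 ± 0.17 SE (adjusted p = 0.753). Among the highest and lowest of the other complexes, Sdhb was at 0.21 and Sdha at -0.10, Uqcrb at 0.20 and Uqcrfs1 at -0.18, Cox7c at 0.21 and Cox8a at -0.16, and Atp5s at 0.32 and Atp5b at -0.19, with adjusted p from 0.405 (Atp5b) to 0.876 (Atp5s). Sdhc and Sdhd, the membrane anchors of complex II, were at -0.03 ± 0.14 and -0.08 ± 0.14 SE.

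Control siRNA against untransfected cells addresses transfection itself, and 0 of 79 genes were called by edgeR, beside 1.48% of all tested genes. DESeq2 and limma-voom called 0, and 4 of 79 (5.06%) had an unadjusted p under 0.05 by edgeR, against 9.2% of all tested genes. Most estimates were small and negative: 65 of 79 genes, against 49.4% of all tested genes, had a lower fitted level with control siRNA, and the median log2 fold change was -0.12 against 0.00. All 17 complex V genes were among the 65. Taking the lines singly, 44 of 79 genes (55.7%) were lower in both, against 26.3% of all tested genes. In both lines 5 were higher, against 26% of all tested genes, and 30 went opposite ways, against 5261 of 11048. The median was -0.05 in pre2-2 and -0.15 in pre3. On the TPM scale, where the median of all genes moved to 0.05 and 0.08, the medians were 0.00 and -0.08. Without the pre3 control siRNA library 47 of 79 estimates were negative with a median of -0.06, and without the untransfected pre3 library 54 of 79 with a median of -0.08, so the count rests in part on the pre3 libraries.

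Atp5e, the epsilon subunit of the central stalk, had the smallest adjusted p of this comparison. It was measured at 84.3, 62.9 and 69.4 CPM in pre2-2 and 103, 82.3 and 80.5 CPM in pre3, and the untransfected library was the highest in each line. Its log2 fold change was -0.37 ± 0.15 SE (adjusted p = 0.375). The lowest estimate was that of Ndufa4l2 (-0.45 ± 0.24 SE, adjusted p = 0.603) and the highest that of Cox6b2 (0.31 ± 0.26 SE, adjusted p = 0.821). Fibroblast markers moved over the same libraries, with 4 of 9 called higher with control siRNA by edgeR, beside 1.38% of all tested genes. The others had positive estimates too. The summed level of these markers went from 5272 to 9562 CPM in pre2-2 and from 4966 to 4880 CPM in pre3. Their part in the shift of the respiratory genes was not tested.

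Between siTet1 and untransfected cells 1 of 79 genes was called, the beta subunit gene Atp5b, which was lower; 1.63% of all tested genes were called lower and 6.55% in either direction. Atp5b was measured at 1582, 1497 and 1290 CPM in pre2-2 and 1936, 1809 and 1616 CPM in pre3. In both lines the untransfected library was the highest and the siTet1 library the lowest, with the control siRNA library between them, and every pre3 library was above every pre2-2 library. The log2 fold change was -0.28 ± 0.08 SE, a fold of 0.826 (95% interval 0.732 to 0.931), with an adjusted p of 0.0473 by edgeR. DESeq2 did not call it, and it was not called after leaving out either control siRNA library or either siTet1 library, with estimates of -0.30 to -0.25 over the libraries left out in turn. Atp5a1, the partner alpha subunit, followed the same order in each line at 1327, 1125 and 1032 CPM in pre2-2 and 1433, 1305 and 1246 CPM in pre3, with a log2 fold change of -0.28 ± 0.09 SE and an adjusted p of 0.0589.

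For the remaining 78 genes the siTet1 and untransfected libraries differed by less than the test could call. The median over the 79 was -0.08, with 38 (48.1%) lower in both lines, against 28.8% of all tested genes. In both lines 6 were higher, against 31.4% of all tested genes, and 35 went opposite ways, against 4391 of 11048. Ndufa13, also known as GRIM-19, had the highest estimate, at 0.44 ± 0.17 SE (adjusted p = 0.143). It lay at 40.6, 48.3 and 59.1 CPM in pre2-2 and 49.1, 45.7 and 62.0 CPM in pre3, and the 2 siTet1 libraries were above the other 4. The lowest estimate was again that of Ndufa4l2, at -0.52 ± 0.24 SE (adjusted p = 0.225). All 4 Sdh genes had negative estimates, from -0.14 for Sdhd to -0.06 for Sdha. Over these libraries 7 of 9 fibroblast markers were called higher with siTet1 by edgeR, beside 4.92% of all tested genes, and the others had positive estimates too. The part of these markers was not tested. The 3 treatment comparisons share libraries, so their values are not independent of each other.

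**Figure D3:**
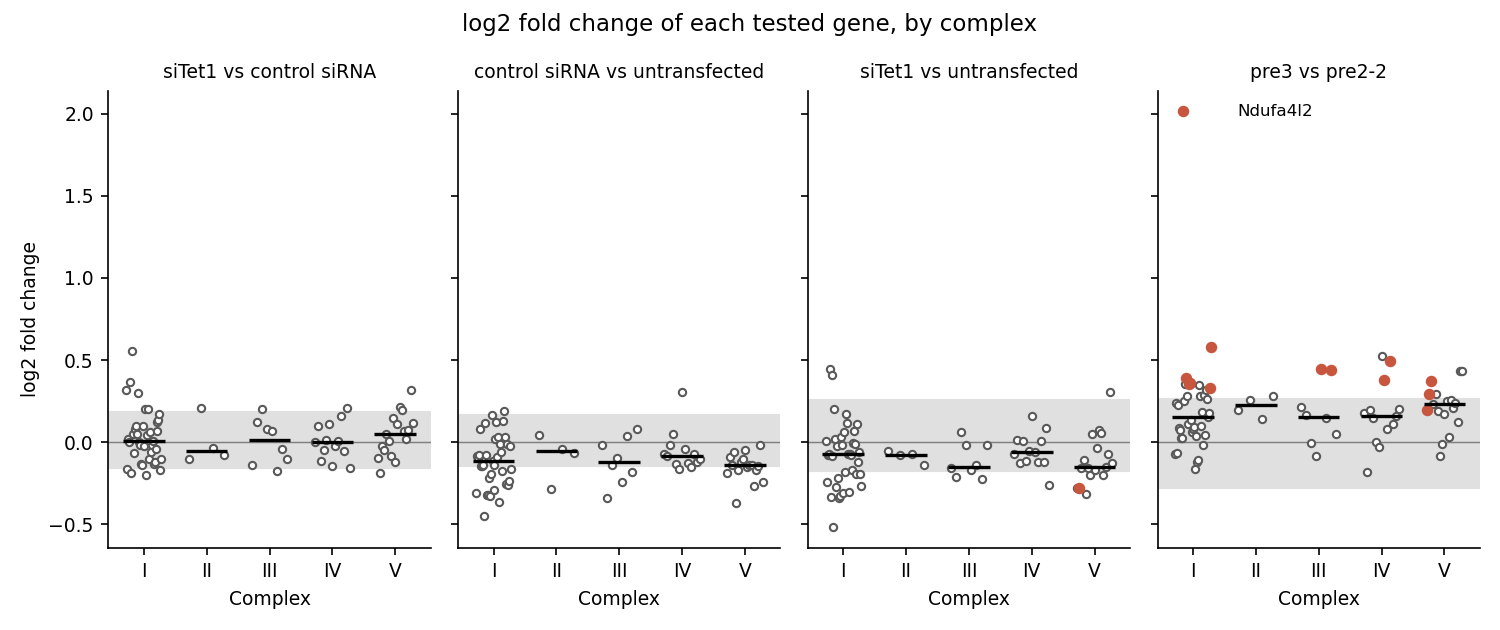
The log2 fold change (vertical axis) of each of the 79 tested genes by complex (horizontal axis) in 4 comparisons; filled points were called at an adjusted p under 0.05, bars are medians of a complex and the grey band spans the middle of the distribution over all tested genes, from the lower to the upper quartile. In the 3 treatment comparisons 1 gene, Atp5b, is filled; in pre3 vs pre2-2 13 genes are filled, all above 0, and Ndufa4l2 stands at 2.01.

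More genes were called between the lines than between the treatments. In pre3 13 of 79 genes (16.5%) were called higher than in pre2-2 and 0 were called lower, where 14.4% of all tested genes were called higher and 15.8% lower. The share called higher was therefore close to that of all genes, and no gene was called lower. DESeq2 and limma-voom also called 0 lower. At an unadjusted p under 0.05 in either direction edgeR had 24 of 79 genes (30.4%), against 40.2% of all tested genes. The median log2 fold change was 0.18 against 0.00 over all tested genes, and 66 of 79 estimates were positive, against 50.3%. In 30 of 79 genes (38.0%) the 3 pre3 libraries lay wholly above the 3 of pre2-2, as they did in 18.9% of all tested genes, and in 0 of 79 they lay wholly below, as they did in 18% of all tested genes. With 3 libraries against 3, an exact permutation test of a single gene that ignores the pairing by treatment cannot go below 0.1, and one within the treatments has a higher floor.

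The direction was shared by the treatments to unequal degrees. Within 1 treatment at a time the median line difference was 0.22 in untransfected cells, 0.10 with control siRNA and 0.21 with siTet1. In 42 of 79 genes (53.2%) pre3 was higher in all 3 treatments, against 28.8% of all tested genes, and 3 genes, Ndufa1, Ndufb6 and Ndufb8, were lower in all 3. On the TPM scale the median of all genes moved to -0.07, the median of the 79 to 0.10, and the distance between them was 0.18, as it was with CPM. On that scale 31 genes were higher in pre3 in all 3 treatments, against 22.2% of all tested genes, and 7 were lower in all 3, against 34.2%. By complex, 6 of 37 genes of complex I were called, 0 of 4 of complex II, 2 of 8 of complex III, 2 of 13 of complex IV and 3 of 17 of complex V, with medians of 0.16, 0.23, 0.16, 0.16 and 0.23.

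**Figure D4:**
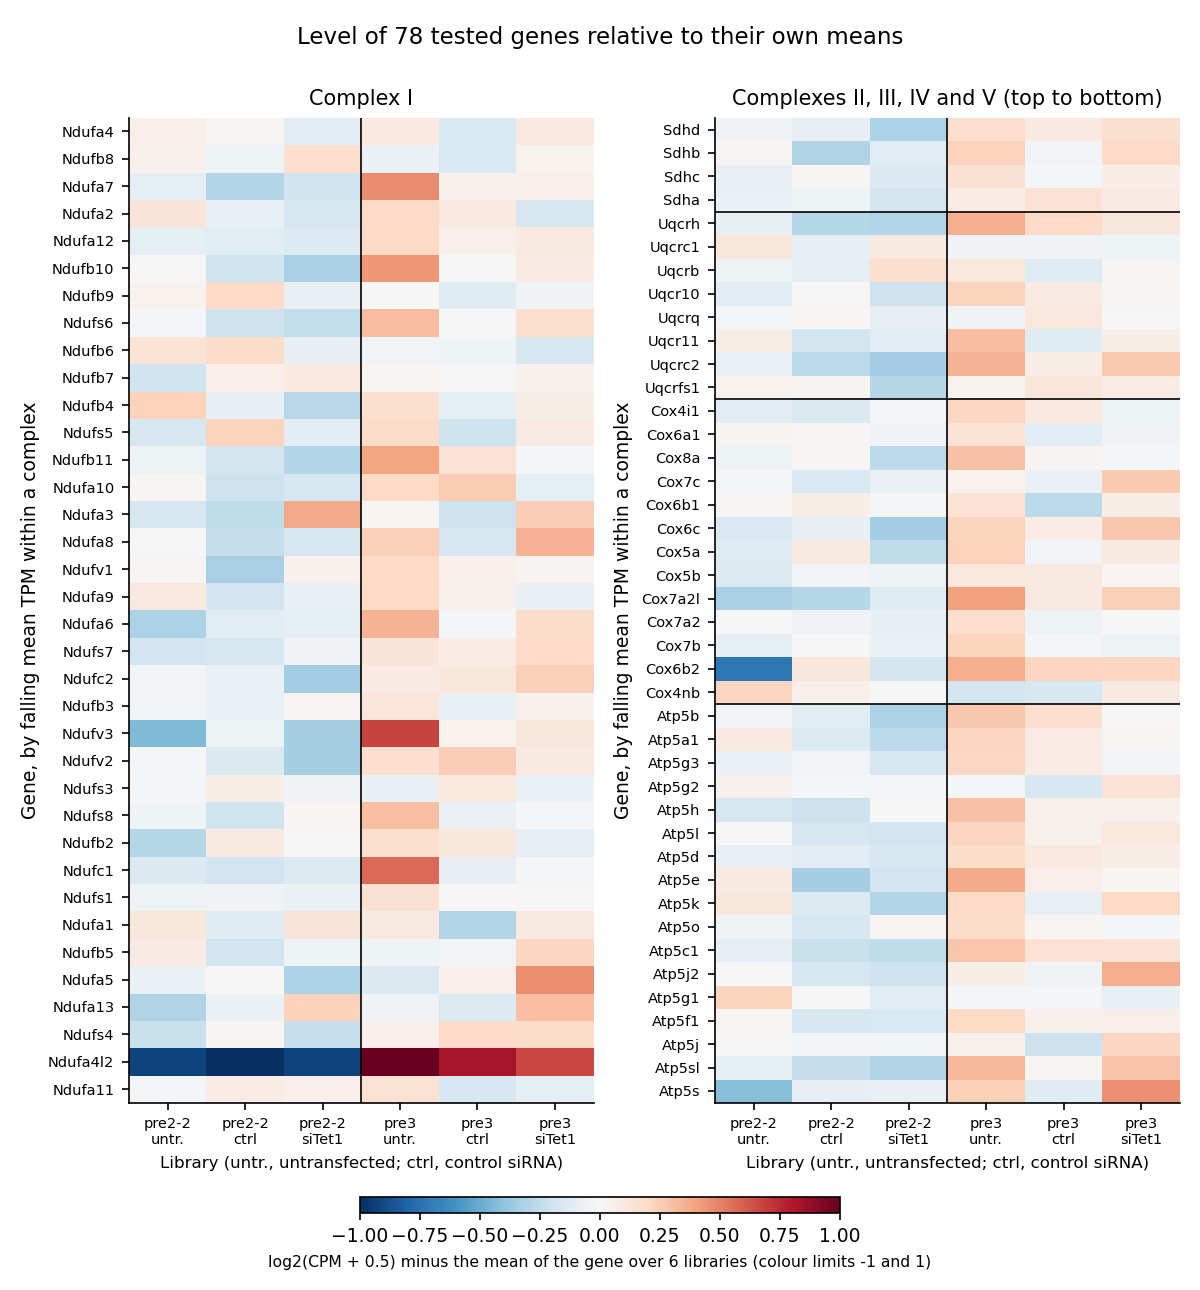
Level of 78 of the 79 tested genes in each library, as log2(CPM + 0.5) minus the mean of that gene over the 6 libraries (colour, red for above and blue for below the mean, limits -1 and 1); rows are genes by complex and columns are libraries. Most rows are bluer in the 3 pre2-2 columns and redder in the pre3 columns, most strongly in the untransfected pre3 column, and Ndufa4l2 has the darkest row.

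Ndufa4l2 showed by far the widest line difference of the 79. Its product is a paralogue of Ndufa4 and is known as a target of the hypoxia-inducible factor HIF-1 that lowers complex I activity in low oxygen. It was measured at 11.6, 10.6 and 11.6 CPM in pre2-2 and at 60.8, 40.4 and 36.0 CPM in pre3. The 3 pre2-2 values were nearly the same, and each pre3 value was at least 3 times as high, with the untransfected library the highest. The log2 fold change was 2.01 ± 0.20 SE, a fold of 4.04 (95% interval 3.02 to 5.40), with an adjusted p of 2.5e-08, and it was called with every library left out in turn (1.77 to 2.19) and under every other setting tried. Of the summed level of Ndufa4 and Ndufa4l2, the latter made up 4.72, 4.41 and 5.30% in pre2-2 and 20.1, 16.6 and 13.04% in pre3. Ndufa4 itself, now counted by many authors as a subunit of complex IV, was at 118, 116 and 105 CPM in pre2-2 and 122, 102 and 122 CPM in pre3 (log2 fold change 0.03 ± 0.12 SE, adjusted p = 0.889). Exons of Ndufa4l2 overlap exons of Shmt2 on the opposite strand in a later mouse annotation than the one used for counting, without a shared stretch of 50 bases, and Shmt2 was higher in pre3 by 0.39 (adjusted p = 0.0028); how far its reads enter the value was not tested.

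The other complex I genes called higher in pre3 were Ndufv3, Ndufa7, Ndufb11, Ndufv2 and Ndufb10. Ndufv3, an accessory subunit of the NADH-binding module, was at 34.4, 45.3 and 37.3 CPM in pre2-2 and 75.6, 48.3 and 50.8 CPM in pre3. The groups did not overlap, and the untransfected pre3 library stood above the other 5. Its log2 fold change of 0.58 ± 0.17 SE had an adjusted p of 0.0105; it was not called without either untransfected library, and the lowest estimate with a library left out was 0.26. Ndufa7 was at 67.3, 58.4 and 62.4 against 99.6, 73.8 and 74.1 CPM (0.39 ± 0.13 SE, adjusted p = 0.0221) and Ndufb11, an X-linked subunit of the membrane arm, at 77.8, 71.0 and 65.7 against 106, 89.2 and 80.0 CPM (0.36 ± 0.12 SE, adjusted p = 0.0274). In both the 3 pre3 libraries were above those of pre2-2, with the untransfected pre3 library the highest. Ndufv2, a core subunit that carries an iron-sulphur cluster, and Ndufb10, an accessory subunit, followed with 0.33 ± 0.12 and 0.35 ± 0.13 SE. Leaving out a library also takes its partner of the same treatment out of the line comparison, so the 6 such fits amount to 3 checks, 1 for each treatment. Ndufa7 kept its call only without either siTet1 library and Ndufv2 only without either untransfected library. Ndufb11 and Ndufb10 kept theirs in 0 of 6.

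Some of the nuclear core subunits of complex I hold the flavin and the iron-sulphur clusters. Among nuclear core subunits the log2 fold changes between pre3 and pre2-2 were 0.18 (Ndufv1), 0.33 (Ndufv2), 0.10 (Ndufs1), -0.02 (Ndufs3), 0.27 (Ndufs7) and 0.16 (Ndufs8). The call among these was Ndufv2. At the low end of the complex stood Ndufb6 (-0.16 ± 0.14 SE, adjusted p = 0.407).

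In complex II edgeR called 0 of the 4 genes on all 6 libraries, and all 4 estimates were positive. Sdhd was called by limma-voom (adjusted p = 0.0485), and Sdhd and Sdha were called by edgeR with the 4 transfected libraries alone (adjusted p = 0.0196 and 0.0431). Leaving out either untransfected library is nearly the same fit and gave the same calls. Sdha, the flavoprotein that binds succinate, was at 235, 239 and 217 CPM in pre2-2 and 260, 272 and 261 CPM in pre3, so that the groups did not overlap (0.20 ± 0.10 SE, adjusted p = 0.124). Sdhd was at 135, 130 and 112 against 156, 148 and 154 CPM, also without overlap, with the smallest adjusted p of the complex (0.28 ± 0.11 SE, adjusted p = 0.0537). Sdhb, the iron-sulphur subunit, was at 101, 81.6 and 93.1 against 118, 98.3 and 115 CPM and Sdhc at 101, 107 and 96.4 against 119, 105 and 112 CPM, and both overlapped between the lines.

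In complex III the calls were a core protein and the hinge protein. Uqcrc2, a core subunit of the matrix side, was at 236, 205 and 195 CPM in pre2-2 and 313, 259 and 297 CPM in pre3, with no overlap. Its log2 fold change was 0.45 ± 0.10 SE (adjusted p = 0.00099), and it kept its call with each library left out and under every other setting. Uqcrc1, the other core subunit, was at 281, 246 and 277 against 254, 254 and 252 CPM and had the lowest estimate of the complex (-0.08 ± 0.10 SE, adjusted p = 0.57). Uqcrh, the hinge protein that helps cytochrome c bind, was at 99.8, 86.6 and 86.2 against 135, 121 and 114 CPM, with no overlap (0.44 ± 0.11 SE, adjusted p = 0.0043). DESeq2 did not call Uqcrh. Reads of Uqcrc2 can overlap those of Pdzd9 on the opposite strand, which shares 17.6% of its 50-base words and lay between 0 and 1.59 CPM.

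In complex IV the calls were Cox7a2l and Cox6c. Cox7a2l encodes a factor, also called SCAF1, that joins complexes III and IV into supercomplexes. It was at 120, 123 and 137 CPM in pre2-2 and 199, 159 and 177 CPM in pre3, with no overlap, and its log2 fold change of 0.49 ± 0.11 SE (adjusted p = 0.0012) was called in every alternative. Its homologue Cox7a2 lay at 75.8, 74.0 and 71.7 against 85.3, 73.3 and 76.3 CPM (0.08 ± 0.12 SE, adjusted p = 0.664). Cox6c, a small membrane subunit, was at 94.0, 98.7 and 82.4 against 122, 110 and 126 CPM, with no overlap (0.38 ± 0.12 SE, adjusted p = 0.0171). Cox6b2 was at 13.9, 25.2 and 20.5 against 30.1, 27.1 and 27.0 CPM. The groups did not overlap, the log2 fold change was 0.53 ± 0.21 SE and the adjusted p 0.0585. By edgeR it was called with library totals alone (adjusted p = 0.0496) and with no filter (adjusted p = 0.0369). RLE factors, DESeq2 and limma-voom did not call it. Its estimate was 0.75 without either control siRNA library. Cox6b1 was at -0.03, Cox6a1 at 0.00, Cox4i1 at 0.18, Cox7b at 0.11 and Cox8a at 0.20, none of them called. The lowest estimate under complex IV, and of all 79 genes, was that of Cox4nb (-0.18 ± 0.13 SE, adjusted p = 0.338).

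In complex V the calls were genes of the catalytic head and the central stalk. Of the head and central stalk genes, Atp5b was higher in pre3 by 0.30 ± 0.07 SE (adjusted p = 0.0018; values above), Atp5c1, the gamma subunit that turns inside the head, by 0.37 ± 0.10 SE (adjusted p = 0.0052) and Atp5a1 by 0.20 ± 0.07 SE (adjusted p = 0.0422). Atp5c1 was at 202, 183 and 179 CPM in pre2-2 and 259, 237 and 235 CPM in pre3, with no overlap, whereas the Atp5a1 groups overlapped. Atp5d, the delta subunit, was at 0.23 (adjusted p = 0.0791) and Atp5e at 0.29 (adjusted p = 0.0744). The c ring genes were at -0.08 (Atp5g1), -0.01 (Atp5g2) and 0.17 (Atp5g3), with adjusted p of 0.621, 0.941 and 0.178. The head and the ring were not tested against each other. The highest estimate under complex V was that of Atp5sl (0.43 ± 0.22 SE, adjusted p = 0.146).

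**Figure D5:**
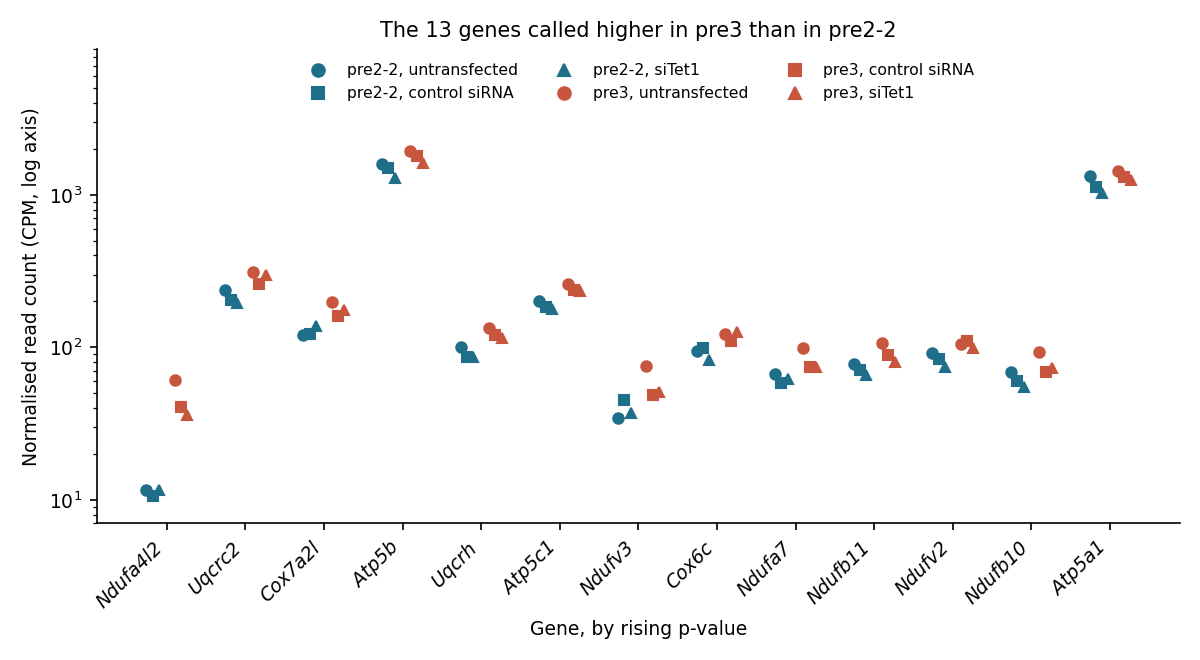
Normalised read count in CPM on a log axis (vertical) of the 13 genes called higher in pre3, in order of p-value (horizontal), in each of the 6 libraries. Ndufa4l2 has the widest gap, from at most 11.6 CPM in pre2-2 to at least 36.0 CPM in pre3, and Atp5a1 and Ndufb10 overlap between the lines.

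The number of line calls depended on which libraries were used. Either library of a treatment left out gives nearly the same fit, since its partner then has no weight in the line comparison. It was 12 without either untransfected library, 7 without either siTet1 library and 6 without either control siRNA library, beside 14.7%, 10.3 to 10.5% and 8.73 to 8.88% of all tested genes called higher. DESeq2 called 4 (Atp5b, Cox7a2l, Ndufa4l2 and Uqcrc2) beside 5.29% of all genes. Ndufa4l2, Uqcrc2 and Cox7a2l were called whichever library was left out. Leaving out either control siRNA library ended the calls of Atp5b, Uqcrh, Atp5c1, Ndufa7, Ndufb11, Ndufv2, Ndufb10 and Atp5a1. Leaving out either siTet1 library ended those of Atp5c1, Cox6c, Ndufb11, Ndufv2, Ndufb10 and Atp5a1, and leaving out either untransfected library those of Ndufv3, Ndufa7, Ndufb11 and Ndufb10. Some of the calls left were of genes outside the 13: Cox6b2 without either control siRNA library, and Atp5j2, Sdha and Sdhd without either untransfected library. The estimates of all 13 stayed positive, the lowest being 0.15 for Atp5a1.

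Promoter sequences were looked at because all 13 genes called between the lines were higher in pre3. Nuclear respiratory factor 1 (NRF1) and the ETS factor GABP, also called NRF2, are known regulators of many respiratory chain genes. In the 250 bases before the start of transcription, from RefSeq on GRCm38.p6, 69 of the 85 genes had an entry. The NRF1 motif, searched on either strand as GCGC, then A, then any base, then GCGC, was present in 13 of 69 (18.8%), against 4.23% of 27025 genes and 9.8% of 7973 genes that were tested here. The letters CCGGAAG of an ETS motif were present in 12 of 69 (17.4%), against 7.83% and 16.4%. Of the 13 genes called higher in pre3, Ndufa4l2, Uqcrc2, Cox6c and Atp5a1 had no entry and were not searched, and of the other 9 Atp5c1 held the NRF1 letters and Uqcrh the ETS letters. In 4 of those genes the sequences below show the range, from no match to an ETS match next to the start, and Atp5g2 and Cox6a1 are added as the most abundant genes with an NRF1 match. They are written from the distal end to the base before the start, in the direction of transcription, with matches in capitals (an ETS match on the reverse strand reads CTTCCGG). Cox7a2l lies on the minus strand at chr17:83514334-83514583, Atp5b on the plus strand at chr10:128083057-128083306, Uqcrh on the minus strand at chr4:116075071-116075320, Ndufv3 on the plus strand at chr17:31519865-31520114, Atp5g2 on the minus strand at chr15:102671048-102671297 and Cox6a1 on the minus strand at chr5:115348959-115349208.
Cox7a2l: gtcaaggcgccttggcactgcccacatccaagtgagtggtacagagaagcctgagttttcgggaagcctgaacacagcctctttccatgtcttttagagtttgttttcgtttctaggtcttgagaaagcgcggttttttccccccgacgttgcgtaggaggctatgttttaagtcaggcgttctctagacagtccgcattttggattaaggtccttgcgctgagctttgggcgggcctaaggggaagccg
Atp5b: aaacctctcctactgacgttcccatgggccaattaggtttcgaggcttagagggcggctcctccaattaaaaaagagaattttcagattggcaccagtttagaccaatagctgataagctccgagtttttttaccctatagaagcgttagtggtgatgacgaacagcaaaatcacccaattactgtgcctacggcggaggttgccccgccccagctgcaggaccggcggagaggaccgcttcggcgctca
Uqcrh: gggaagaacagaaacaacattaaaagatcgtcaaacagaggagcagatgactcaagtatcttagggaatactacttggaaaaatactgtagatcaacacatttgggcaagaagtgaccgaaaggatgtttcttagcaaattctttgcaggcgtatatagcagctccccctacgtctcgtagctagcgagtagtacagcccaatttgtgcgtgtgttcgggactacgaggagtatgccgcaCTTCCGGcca
Ndufv3: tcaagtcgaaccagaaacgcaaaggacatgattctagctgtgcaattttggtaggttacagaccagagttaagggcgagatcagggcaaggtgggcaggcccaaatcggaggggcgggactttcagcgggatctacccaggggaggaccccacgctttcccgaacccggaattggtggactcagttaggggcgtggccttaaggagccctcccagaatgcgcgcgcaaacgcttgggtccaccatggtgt
Atp5g2: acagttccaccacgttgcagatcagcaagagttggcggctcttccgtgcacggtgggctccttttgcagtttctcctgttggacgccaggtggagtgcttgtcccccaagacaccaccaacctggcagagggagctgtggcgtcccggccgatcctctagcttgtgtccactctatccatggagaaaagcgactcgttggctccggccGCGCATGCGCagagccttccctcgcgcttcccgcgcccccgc
Cox6a1: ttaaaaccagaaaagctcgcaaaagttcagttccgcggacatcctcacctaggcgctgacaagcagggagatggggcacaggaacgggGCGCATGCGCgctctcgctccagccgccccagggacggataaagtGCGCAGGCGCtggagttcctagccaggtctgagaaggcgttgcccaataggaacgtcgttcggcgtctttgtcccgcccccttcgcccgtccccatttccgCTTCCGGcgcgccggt
Atp5g2 and Cox6a1 hold 1 and 2 NRF1 matches. A match describes letters and not binding, and whether a match goes with the line difference was not tested.

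Among regulators and assembly factors 1 gene each passed the test between the lines. In both lists this was a smaller share than the 30.2% of all tested genes called in either direction. Of 12 listed regulators of respiratory genes and mitochondrial DNA, 10 were tested and 1 was called, Pprc1, a coactivator of the PGC-1 family, which was lower in pre3 (190, 187 and 188 against 123, 154 and 152 CPM, log2 fold change -0.40 ± 0.11 SE, adjusted p = 0.0055). Nrf1 was at 0.13 (adjusted p = 0.534), Tfam, which packages and transcribes mitochondrial DNA, at 0.09 (adjusted p = 0.693), and Ppargc1a had at most 0.503 CPM in any library. Of the 30 assembly factors tested, 1 was called, Uqcc, a complex III assembly factor, at 41.8, 38.8 and 35.9 against 70.5, 60.5 and 51.9 CPM (0.65 ± 0.15 SE, adjusted p = 0.0012). The median of the assembly factors was 0.09 and that of the regulators 0.09.

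Enzymes that feed the chain were higher in pre3 in part. Of 16 genes of the tricarboxylic acid cycle and pyruvate dehydrogenase, 6 were called higher and 0 lower, with a median of 0.16, beside 14.4 and 15.8% of all tested genes. The 6 were Fh1 (0.53), Suclg2 (0.49), Suclg1 (0.42), Idh3a (0.39), Pdhb (0.36) and Idh3g (0.31), and citrate synthase, Cs, was at 0.05 (adjusted p = 0.69). Etfa and Etfb, which carry electrons from fatty acid oxidation, were higher by 0.41 and 0.36 of 5 genes for other entry to the quinone pool. Among 8 subunits and carriers outside the symbol rule Atpif1, an inhibitor of the ATP synthase running in reverse, was higher by 0.50 ± 0.11 SE (adjusted p = 0.00092), while cytochrome c1 (Cyc1) and cytochrome c (Cycs) were at 0.05 and 0.02. Of 7 carriers of nucleotides, phosphate and protons, Vdac1 and Ucp2 were higher and Slc25a4, the ADP/ATP carrier of heart and muscle, was lower by 0.39. In the treatment comparisons 0 genes of these 4 lists, the assembly factors or the regulators were called by edgeR.

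Hypoxia-responsive genes differed between the lines in the same direction as Ndufa4l2. Of 9 tested, 8 were called higher in pre3, beside 14.4% of all tested genes, and the median was 0.88. The 8 were Egln3 (1.62), Ldha (0.77), Pdk1 (1.25), Bnip3 (1.48), Ankrd37 (1.90), Egln1 (0.88), Slc2a1 (0.44) and Vegfa (0.58). Pdk1, which inhibits pyruvate dehydrogenase, was at 99.8, 87.1 and 78.7 CPM in pre2-2 and 269, 212 and 160 CPM in pre3, where the untransfected library was the highest, as it was for Ndufa4l2. With siTet1 against untransfected cells Ldha (-0.63, adjusted p = 3.0e-05), Pdk1 (-0.57, adjusted p = 0.0114) and Bnip3 (-0.69, adjusted p = 0.0137) were called lower, beside 1.63% of all tested genes. Of the genes not called there, Egln1, Ankrd37 and Higd1a had negative estimates, and Slc2a1 (0.30), Vegfa (0.23) and Egln3 (0.03) had positive ones. With control siRNA against untransfected cells Ldha was called lower (-0.37, adjusted p = 0.0152), beside 0.0996% of all tested genes. With siTet1 against control siRNA 0 were called, beside 1.58% of all tested genes, and estimates went both ways, from -0.29 (Pdk1) to 0.42 (Egln3). Oxygen was not measured, and the part of the hypoxia-responsive genes in the line difference of the respiratory genes was not tested.

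Markers of cell state also separated the lines. Fibroblast markers were called lower in pre3 for 8 of 9, beside 15.8% of all tested genes, and the other, Fn1, was at -0.29. Epithelial markers were called lower for 3 of 5 (Cdh1, Epcam and Krt8) and higher for Krt19. Of 4 tested pluripotent cell markers Pou5f1 (2.45) and Dppa5a (1.77) were called higher, beside 14.4% of all tested genes, and Sall4 was called lower. The pluripotent markers summed to 1536 to 1789 CPM in pre2-2 and 6234 to 7067 CPM in pre3, of which Pou5f1 made up 1037 to 1203 and 5772 to 6593 CPM. The line difference of the sum thus follows Pou5f1, and Nanog, Zfp42, Esrrb and Lin28a were too low to test. Counts per gene do not separate reads of the gene itself from those of any introduced copy, so the sum does not rank the lines by pluripotency. Sox2 was at -0.18 (adjusted p = 0.128) and Sall4 at -0.89 between the lines. Muscle markers summed to 12.7 to 55.4 CPM and blood markers to 5.03 to 10.6 CPM. Over all tested genes the lowest line estimate was that of Usp9y, a Y-linked gene, at -8.53. Whether the lines differ in sex or in Y chromosome content was not tested. How far the marked cell states carry the line difference of the respiratory genes was not tested either. With 1 culture line on each side the line and its history cannot be told apart.

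Whether the lines responded differently was tested with interaction terms. For siTet1 against the other libraries of a line, 0 of 79 genes were called by edgeR (0% of all tested genes), and DESeq2 called 0. At an unadjusted p under 0.05 by edgeR were 0 of 79, against 2.44% of all tested genes. For transfected against untransfected libraries, 0 of 79 were called by edgeR (0.00905% of all tested genes), and DESeq2 called 0. An unadjusted p under 0.05 by edgeR was reached by 1 of 79, against 5.46% of all tested genes. That gene was Ndufv3, whose log2 difference between the control siRNA and the untransfected library was 0.39 in pre2-2 and -0.64 in pre3, with an interaction of -0.87 ± 0.30 SE (adjusted p = 0.884).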

How the data were processed

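RNA was extracted with Trizol and made into libraries with the Illumina TruSeq RNA kit, per the labels' protocols. The deposited tables hold 2 values for each gene. The first is the expected count, an estimate of its reads with no normalization, which the authors obtained with RSEM 1.1.21 on mm9, per the submitters' processing notes. The second, the deposited fraction, is the length-corrected share of transcripts from a gene and sums to 1 per library. Aligner settings, read length, strand and filters are not given in the sources used here, so reads of overlapping genes on opposite strands may not be told apart; 27 of the 85 genes have such an exon overlap in the later annotation.

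Levels were compared between genes as TPM (the fraction scaled) and between libraries as CPM with TMM factors (0.983 to 1.01), and an expected count was rounded before testing. edgeR 4.0.16 in R 4.3.3 was fitted to all 6 libraries (line and treatment as terms, genes kept by filterByExpr on treatment, minimum count 10, quasi-likelihood test, two-sided, Benjamini-Hochberg over 11048 genes), and every p in the text is from edgeR unless another tool is named. SE is the absolute log2 fold change over the root of F, and 95% intervals use the t distribution of the fit. Calls are at an adjusted p under 0.05. The smallest p of an exact permutation test that ignores the pairing by line is 0.333 for 2 against 2 libraries, and one within the lines has a higher floor. The script was tested on simulated counts. Libraries with the same replicate number come from the same line, which pairs them: the line difference correlated across genes at 0.667 to 0.772 between treatments, and line is a term of the model. Alternatives were RLE factors, library totals, no filter, DESeq2 1.42.0, limma-voom 3.58.1, other model terms, fewer libraries, and each library left out in turn. TPM in place of CPM for medians was added after seeing the data.

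The genes, the lists and the tests were chosen with earlier results of these data known. The rule named the 10 called genes with the smallest p per comparison and direction, the most abundant gene of each complex, the extremes, the Sdh genes and the isoforms. Ndufv2, Ndufb10, Atp5a1, the nuclear core of complex I and the other named genes were added by role after values were seen. Lists covered assembly factors, regulators, the tricarboxylic acid cycle, carriers, other quinone entry, other subunits, hypoxia-responsive genes and markers of pluripotent, fibroblast, epithelial, muscle, germ and blood cells. Of the 42 assembly factor symbols 31 matched the tables and 30 were tested. For 1 gene single values are not reported here, and it is counted in the totals. Promoters were read from RefSeq on GRCm38.p6, a later build than mm9. Exon overlaps and shared stretches of bases were read from GENCODE mouse gene models and transcripts, also later than the annotation used for counting.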

Additional observations from a re-analysis of the deposited data

How the results depend on the processing

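Counts of called genes rest on few libraries and a shared spread. Leaving out a library leaves its partner of the same treatment without weight in the line comparison. The same holds for a comparison of the other treatments. There, leaving out either library of a treatment is nearly the same check, and so is fitting the 4 other libraries alone. Between siTet1 and control siRNA the count of lower genes was 0, and 1 (Atp5b) with the 4 compared libraries and the line as replicate block; over libraries left out in turn it was 0 to 1, with 1 without either untransfected library. For control siRNA against untransfected cells it was 0 to 1, the 1 being Atp5a1 without the untransfected pre3 library. Between siTet1 and untransfected cells the 1 lower gene, Atp5b, became 0 with the replicate block on 4 libraries, with no replicate block, with library totals alone and with DESeq2, and 2 (with Atp5a1) with limma-voom and with no filter. Over libraries left out it was 0 to 2, and that of higher genes 0 to 1 (Ndufa13 without the untransfected pre3 library). The replicate block on 4 libraries changed no other count. For pre3 against pre2-2 the 13 higher genes became 4 with DESeq2, 6 with treatment left out of the model, and 6 to 12 with a library left out; the cause of the drop under DESeq2 was not tested. Ratios of summed level moved to 1.126 (complex I), 1.133 (III), 1.166 (V) and 1.146 (all) in CPM, which is not per length, that of complex III to 1.031 without Uqcrh and to 1.058 to 1.081 with a library left out. Of the alternatives for summaries 151 changed little and 32 moved by the set margin. For the genes followed singly 1280 kept their side of the threshold, 66 lost a call and 19 gained one. Atp5j2 was not followed singly, and it was called higher in pre3 with the 4 transfected libraries alone. No called direction reversed. Low depth limits the genes near the filter, such as Atp5s.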
